A study of Mus musculus with 12 samples.

Results

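The RNA-binding protein genes Lin28a and Lin28b and 7 further genes that are high early in the embryo (Hmga2, Trim71, Igf2bp1, Igf2bp2, Igf2bp3, Sall4 and Dnmt3b) were followed in heads of Eftud2 mouse embryos. The 9 genes were taken by symbol from the 24421 rows of the deposited count table, each symbol had 1 row, and all 9 were among the 14810 genes with enough counts to test. The samples were C57Bl/6 embryos with an alteration of Eftud2 in neural crest cells. Eftud2 encodes a GTPase that works in the U5 particle of the spliceosome. The samples fell into 4 groups of 3 libraries, namely heterozygous Eftud2+/- controls at embryonic day 9.0 (E9.0), homozygous Eftud2-/- mutants at E9.0, and the same 2 genotypes at E9.5. The controls therefore carry 1 altered allele themselves, and no group is labelled as having both alleles intact. The embryos received no treatment. The labels do not give the Cre driver, the somite counts taken at dissection or how many embryos went into a library. The labels name the material in 3 ways (neural crest cells as the source, cranial nerve ganglia as the tissue, heads in the protocol). Markers of crest, ganglion neurons, neural tube, surface ectoderm, endothelium, blood and heart muscle were all present. These markers do not settle the name, and the material is called heads here after the protocol.

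Lin28a and Lin28b encode RNA-binding proteins that block the maturation of the let-7 microRNAs and bind many messenger RNAs directly. In many animals Lin28 is high early and let-7 is high later, and each side holds the other down, which makes the pair a well-known timer of development. In the mouse embryo both Lin28 genes act in the neural tube, where they favour progenitor growth over early differentiation. Hmga2 (a chromatin architectural protein), Trim71 (an RNA-binding ubiquitin ligase, the relative of worm lin-41) and the Igf2bp genes (RNA-binding proteins that stabilize or localize messages such as Igf2) are classical let-7 targets or contain let-7 sites. Sall4 is a zinc-finger transcription factor of pluripotent and early embryonic cells, and Dnmt3b is a de novo DNA methyltransferase that is high in the early embryo.

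The let-7 family is defined by a shared seed, which pairs with the complementary letters in a target's 3′ UTR. The mature microRNAs below show this seed (bases 2 to 8) in capitals. They are taken from RefSeq (GRCm38.p6). The 9 let-7 family sequences that were matched, namely let-7a to let-7g, let-7i and miR-98, all carry the same seed. The miR-125 pair, which acts beside let-7 on Lin28a in other systems, carries another.
mmu-let-7a-5p: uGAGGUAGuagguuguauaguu
mmu-let-7g-5p: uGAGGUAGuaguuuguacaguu
mmu-miR-98-5p: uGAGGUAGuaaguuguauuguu
mmu-miR-125a-5p: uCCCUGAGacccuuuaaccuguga
mmu-miR-125b-5p: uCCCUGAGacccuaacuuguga

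The letters opposite the let-7 seed, CTACCTC, were searched on the sense strand of each gene's longest annotated 3′ UTR (GENCODE M21, GRCm38). Lin28b, Hmga2, Trim71 and Igf2bp1 each held 4 matches, in 3′ UTRs of 4445, 3014, 5512 and 6337 bases. Lin28a held 2 in 2775 bases, and Igf2bp2, Igf2bp3 and Sall4 held 1 each. Dnmt3b held none in 1331 bases. Of 13578 genes with an annotated 3′ UTR, 10.8% held at least 1 match and 0.081% (11 genes, these 4 included) held 4 or more. Long 3′ UTRs hold more matches by length alone. Among 3′ UTRs of similar length, from 0.8 times the gene's own up to the same factor above it, a match was present in 15.4% for Lin28a, 24.7% for Lin28b, 17.4% for Hmga2, 30.1% for Trim71 and 33.8% for Igf2bp1. The letters opposite the miR-125 seed, CTCAGGG, occurred once each in Lin28a, Lin28b, Trim71 and Igf2bp3 and in 16% of all 3′ UTRs. Among 3′ UTRs of similar length, a miR-125 match was present in 25.8% for Lin28a, 33% for Lin28b, 38% for Trim71 and 21.8% for Igf2bp3. A match is a description of the sequence only.

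The first match from the 5′ end of the 3′ UTR is shown for the 5 members with more than 1 let-7 match, with the letters opposite the seed in capitals. Each is followed by an A, the letter that often flanks let-7 sites, and all lie on the minus strand of GRCm38. The sixth line is the miR-125 match of Lin28a.
Lin28a, chr4:134005189-134005218: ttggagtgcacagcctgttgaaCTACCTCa
Lin28b, chr10:45381022-45381051: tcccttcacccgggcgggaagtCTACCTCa
Hmga2, chr10:120364224-120364253: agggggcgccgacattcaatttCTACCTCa
Trim71, chr9:114512472-114512501: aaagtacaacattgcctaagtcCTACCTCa
Igf2bp1, chr11:95961778-95961807: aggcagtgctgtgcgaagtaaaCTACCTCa
Lin28a (miR-125), chr4:134005301-134005330: tgttctcaggtacatgagcaatCTCAGGGa

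The libraries held 13914543 to 31172708 counts. The ribosomal precursor row Rn45s took 37.4% of heterozygous E9.0 replicate 1, 6.05% to 16.2% of the other E9.0 libraries and 4.40% to 5.90% of the E9.5 libraries. Levels below are CPM, counts scaled to a common library size with TMM factors, which assume that most genes are alike between libraries. The factor was 0.664 for heterozygous E9.0 replicate 1 and 0.924 to 1.11 elsewhere. Eftud2 itself was lower in homozygous libraries, at 232 to 236 against 276 to 302 CPM at E9.0 and at 221 to 226 against 248 to 265 CPM at E9.5. The log2 difference was −0.29 ± 0.05 at E9.0 (SE, edgeR adjusted p 0.0193). At E9.5 it was −0.19 ± 0.05 and missed the threshold (edgeR adjusted p 0.0906), though the groups did not overlap. The level of Eftud2 thus followed the genotype labels, and most of its transcript remained in these heads. Markers of heart muscle, summed over 8 genes, rose from 74.0 to 372 CPM at E9.0 to 2114 to 3337 CPM at E9.5, and markers of red blood cells from 539 to 1178 to 2792 to 5206 CPM. Germ cell markers, whose cells also express Lin28a and Sall4, summed to 18.2 to 36.3 CPM with Dppa3, Prdm14 and Dazl at or under 3 counts per library on average.

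Lin28a fell steeply from E9.0 to E9.5 in both genotypes. Heterozygous libraries were at 971, 895 and 1061 CPM at E9.0 and at 341, 389 and 337 CPM at E9.5. In homozygous heads it was at 948, 1049 and 995 CPM at E9.0 and at 446, 425 and 358 CPM at E9.5. Every E9.5 library lay below every E9.0 library, by a wide gap. The E9.5 level was 0.365 times the E9.0 level in heterozygous heads (log2 change −1.46 ± 0.09, SE, edgeR adjusted p 1.67e-08) and 0.411 times in homozygous heads (−1.28 ± 0.09, edgeR adjusted p 4.41e-08). The gene lies on chromosome 4 at chr4:134003330-134018841 (minus strand, GRCm38).

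Between genotypes, Lin28a was at 976 ± 83.1 against 997 ± 50.5 CPM at E9.0 (SD, n = 3 each), heterozygous first, and at 356 ± 28.7 against 409 ± 46.2 CPM at E9.5. The groups overlapped at both stages. The E9.0 difference was 0.03 ± 0.08 on the log2 scale (edgeR adjusted p 0.908). At E9.5 it was 0.20 ± 0.08, with a 95% interval of 0.02 to 0.38 for the single gene, and it missed the threshold over all genes (edgeR adjusted p 0.311, exact permutation p 0.2). Homozygous replicates 1 and 2 lay above all 3 heterozygous libraries, and homozygous replicate 3 lay among them.

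Lin28b, the paralog on chromosome 10 (chr10:45376620-45486395, minus strand), fell much less. Its heterozygous libraries were at 279, 316 and 347 CPM at E9.0 and at 236, 235 and 231 CPM at E9.5. The homozygous libraries were at 303, 317 and 260 CPM and then at 243, 243 and 224 CPM. No E9.5 library reached the lowest E9.0 library of its genotype. The log2 change was −0.42 ± 0.08 in heterozygous (edgeR adjusted p 0.000679) and −0.31 ± 0.08 in homozygous heads (edgeR adjusted p 0.00662). Scaled by total counts only, both calls were lost, at −0.07 and −0.15 (edgeR adjusted p 0.727 and 0.577). The genotype differences of −0.10 ± 0.08 at E9.0 and 0.02 ± 0.08 at E9.5 missed the threshold (edgeR adjusted p 0.627 and 0.968).

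The balance of the 2 paralogs therefore moved with stage. The count of Lin28a over that of Lin28b was 3.48, 2.84 and 3.05 in heterozygous E9.0 libraries and 1.45, 1.65 and 1.46 at E9.5. In homozygous libraries it was 3.13, 3.31 and 3.82 at E9.0 and 1.84, 1.75 and 1.59 at E9.5. The stages did not overlap in either genotype (exact permutation p 0.1 each, the smallest that 3 against 3 allows), whereas the genotypes overlapped at both (exact permutation p 0.4 and 0.2). This ratio needs no scaling between libraries, so Rn45s does not enter it.

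**Figure D1:**
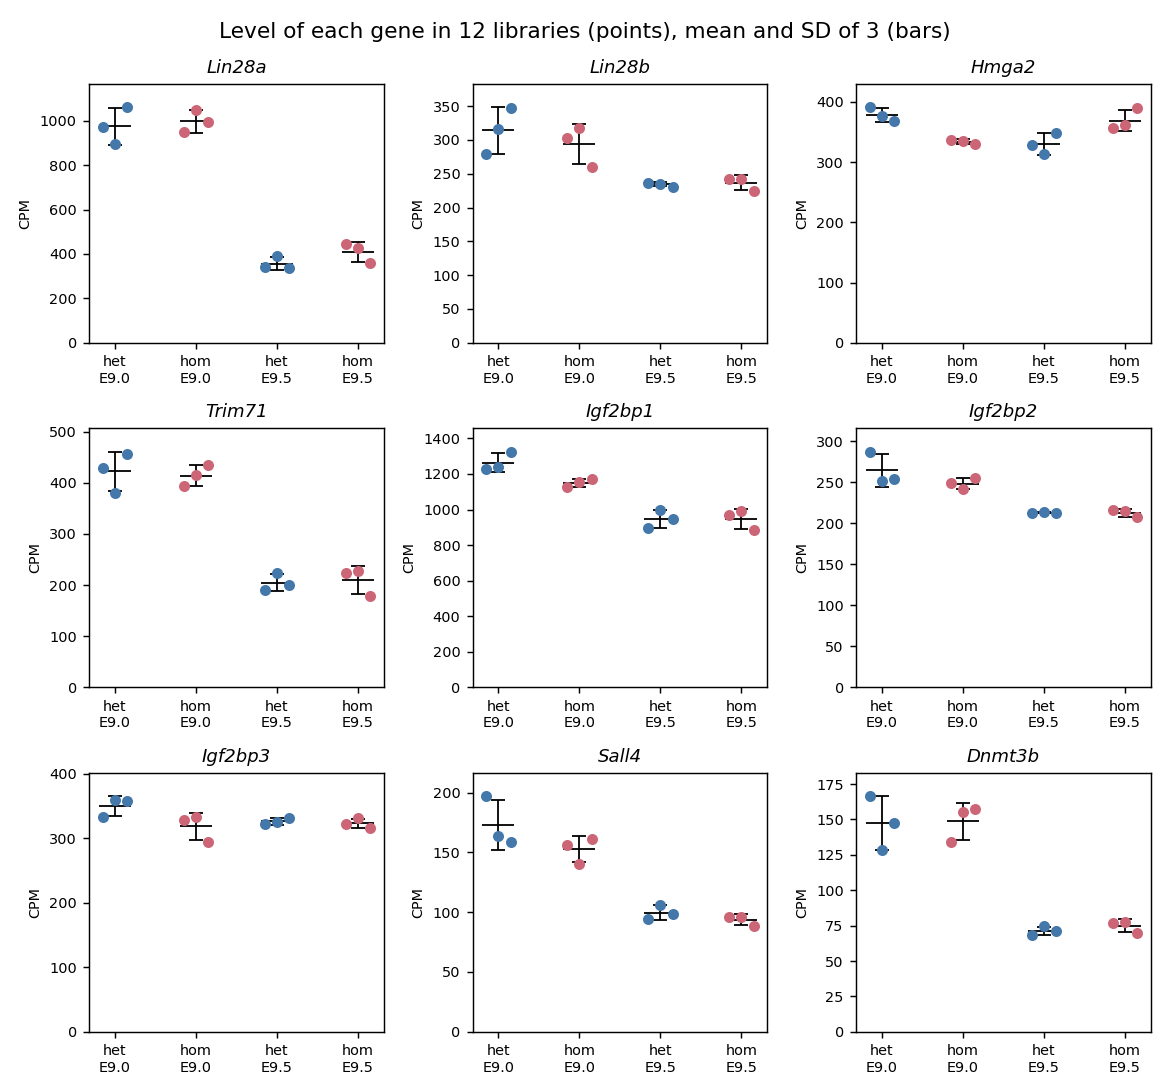
Level of each of the 9 genes in CPM (linear axis from 0) in every library, grouped by genotype (het, heterozygous; hom, homozygous) and stage. Points are libraries, bars the mean and SD of 3. Lin28a, Trim71, Sall4 and Dnmt3b separate the stages widely, Igf2bp3 hardly, and Hmga2 crosses over.

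Trim71, which like Lin28a holds let-7 matches in its 3′ UTR, fell in both genotypes. Heterozygous libraries were at 429, 381 and 457 CPM at E9.0 and at 191, 223 and 200 CPM at E9.5. The homozygous libraries were at 394, 415 and 435 CPM and at 224, 227 and 179 CPM. The level at E9.5 was 0.484 times that at E9.0 in heterozygous heads (log2 −1.05 ± 0.09, edgeR adjusted p 6.65e-07) and 0.507 times in homozygous heads (−0.98 ± 0.09, edgeR adjusted p 1.22e-06). The stages were fully apart and the genotypes overlapped, with genotype differences of −0.03 ± 0.09 at E9.0 and 0.04 ± 0.09 at E9.5 (edgeR adjusted p 0.922 and 0.924). Trim71 lies at chr9:114507133-114564369, minus strand.

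Dnmt3b, on chromosome 2 (chr2:153649450-153687730, plus strand), held no let-7 match and fell by a similar amount. It was at 166, 128 and 147 CPM in heterozygous and at 134, 156 and 157 CPM in homozygous E9.0 libraries. The E9.5 libraries were at 68.5, 74.5 and 71.1 CPM in heterozygous and at 77.1, 77.8 and 69.7 CPM in homozygous heads. All of the latter lay below every E9.0 library. The log2 change was −1.04 ± 0.09 in heterozygous and −0.99 ± 0.09 in homozygous heads (edgeR adjusted p 3.97e-07 and 6.03e-07), and the genotype differences were 0.02 and 0.07 (edgeR adjusted p 0.952 and 0.827).

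Sall4, also on chromosome 2 (chr2:168748332-168767943, minus strand), was at 197, 163 and 159 CPM in heterozygous and at 156, 141 and 162 CPM in homozygous E9.0 libraries. By E9.5 the values were 93.9, 106 and 98.7 CPM in heterozygous and 96.2, 96.1 and 88.5 CPM in homozygous libraries. The stages were apart in both genotypes and the genotypes overlapped. Sall4 fell by 0.79 ± 0.08 on the log2 scale in heterozygous and by 0.70 ± 0.08 in homozygous heads (edgeR adjusted p 2.34e-06 and 7.48e-06). Its genotype differences were −0.18 ± 0.08 at E9.0 and −0.09 ± 0.08 at E9.5 (edgeR adjusted p 0.356 and 0.737).

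The 3 Igf2bp genes, whose proteins share the same arrangement of RNA-binding domains, differed in course: Igf2bp1 and Igf2bp2 fell in both genotypes and Igf2bp3 passed no test of stage. Igf2bp1 (chr11:95957163-96005940, minus strand) was at 1228, 1240 and 1326 CPM in heterozygous and at 1125, 1153 and 1173 CPM in homozygous E9.0 libraries. The E9.5 values were 895, 997 and 945 CPM and 969, 991 and 885 CPM, in the same order. Homozygous heads were thus lower at E9.0 without overlap and mixed with the controls at E9.5. The stage change was −0.42 ± 0.06 in heterozygous and −0.28 ± 0.06 in homozygous heads (edgeR adjusted p 5.75e-05 and 0.00173). Both calls were lost when scaled by total counts only, at −0.05 and −0.11 (edgeR adjusted p 0.774 and 0.654). The E9.0 difference between genotypes, −0.14 ± 0.06, missed the threshold (edgeR adjusted p 0.337).

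Igf2bp2 (chr16:22059009-22163299, minus strand) was at 287, 251 and 255 CPM in heterozygous and at 249, 242 and 255 CPM in homozygous E9.0 libraries. All 6 E9.5 libraries lay between 207 and 216 CPM, below every E9.0 library. Its log2 change was −0.31 ± 0.06 in heterozygous and −0.22 ± 0.06 in homozygous heads (edgeR adjusted p 0.000603 and 0.00643), though scaled by total counts only the heterozygous value turned to 0.07 (edgeR adjusted p 0.65) and the homozygous value was −0.05 (edgeR adjusted p 0.818). Igf2bp3 (chr6:49085223-49214957, minus strand), the member that moved least with stage, was at 332, 359 and 358 CPM in heterozygous and 328, 332 and 295 CPM in homozygous E9.0 libraries. Heterozygous E9.5 libraries were at 322, 325 and 332 CPM and homozygous libraries at 321, 331 and 316 CPM. Its stage values of −0.10 ± 0.06 and 0.02 ± 0.06 missed the threshold (edgeR adjusted p 0.189 and 0.817). Over 24 alternatives the heterozygous value ranged from −0.14 to 0.26 and was never called. Igf2bp3 overlaps Malsu1 on the other strand, and because the strand setting of the counting is not given in the sources used here, reads from the shared stretch cannot be told apart. Antisense or opposite-strand genes are also annotated over Lin28a, Hmga2, Trim71, Igf2bp1, Sall4 and Dnmt3b.

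Hmga2 (chr10:120361275-120476469, minus strand) was the exception among the 9. In heterozygous heads it was at 391, 377 and 368 CPM at E9.0 and at 328, 313 and 348 CPM at E9.5. In homozygous heads it was at 337, 335 and 329 CPM at E9.0 and at 356, 361 and 389 CPM at E9.5. Heterozygous libraries were thus lower at the later stage and homozygous libraries higher, without overlap in either case. The heterozygous change of −0.20 ± 0.06 passed the threshold (edgeR adjusted p 0.0121). It was kept in 21 of 24 alternatives. It was lost without heterozygous E9.5 replicate 2 (−0.16, edgeR adjusted p 0.0586) and with total counts after the Rn45s row was removed (−0.10, edgeR adjusted p 0.202), and scaled by total counts only the sign turned (0.18, edgeR adjusted p 0.297). The homozygous value of 0.15 ± 0.06 missed the threshold (edgeR adjusted p 0.0575) and passed it in 6 of 24 alternatives, among them the fits without heterozygous E9.0 replicate 1, heterozygous E9.5 replicate 2 or homozygous E9.5 replicate 1.

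The same crossing appears between genotypes. At E9.0 Hmga2 was at 379 ± 11.8 CPM in heterozygous and 334 ± 4.04 CPM in homozygous heads (SD, n = 3 each), a log2 difference of −0.18 ± 0.06 (edgeR adjusted p 0.184, exact permutation p 0.1). At E9.5 it was at 330 ± 17.7 against 369 ± 17.7 CPM, a difference of 0.16 ± 0.06 (edgeR adjusted p 0.194, exact permutation p 0.1). Neither difference passed the threshold over all genes.

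Most of the 9 genes passed the test of stage and none that of genotype. From E9.0 to E9.5, 8 of 9 passed the threshold in heterozygous heads, all lower, where 16.0% of all tested genes were called lower and 35.2% were called in either direction. In homozygous heads 7 of 9 passed, all lower, against 15.8% called lower and 35.4% in either direction. Groups did not overlap for 9 of 9 members in heterozygous heads, all lower (22.5% of all genes), and for 8 of 9 in homozygous heads, all lower but Hmga2 (48.2% of all genes in either direction). The median log2 change of the 9 was −0.42 in heterozygous and −0.31 in homozygous heads, beside 0.01 for all genes in each. The members were chosen as early genes with earlier results known, so these counts only describe them. In bulk libraries, fewer cells with a transcript and less transcript per cell cannot be told apart, and the rise of heart and blood markers named above moved with these stage changes. Its part in them was not tested. Without heterozygous E9.0 replicate 1, the library rich in Rn45s, 8 members were still called lower in heterozygous heads, Lin28a at −1.46 and Lin28b at −0.50. Of all genes, 4481 were called in that comparison, 2517 of them higher. Scaled by total counts only, 4 members were called with stage in each genotype, all lower. Under that scaling 6984 of all genes were called in heterozygous heads (6729 higher) and 3326 in homozygous heads (2897 higher).

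**Figure D2:**
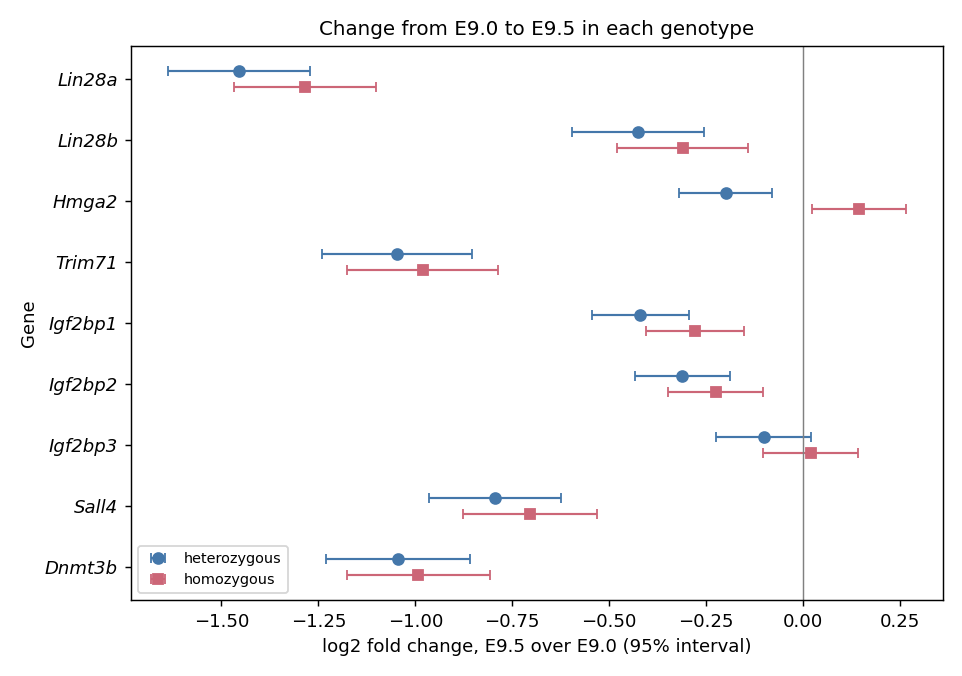
Log2 fold change from E9.0 to E9.5 (x axis, bars are 95% intervals) for each gene in heterozygous (circles) and homozygous heads (squares), from 3 libraries per group. The homozygous square lies to the right of the heterozygous circle for all 9 genes, and the intervals overlap for 8 of them, all but Hmga2.

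None of the 9 differed between genotypes at the threshold. At E9.0, 0 of 9 were called by edgeR, where 0.587% of all genes were, and 4 of 9 had an unadjusted p under 0.05 (13.3% of all genes). Igf2bp1, Igf2bp3 and Hmga2 were lower in homozygous heads without overlap, 3 of 9 where 8.20% of all genes did so. At E9.5, 0 of 9 were called (1.89% of all genes) and 2 had an unadjusted p under 0.05 (13.4% of all genes), namely Lin28a and Hmga2. Hmga2 alone was without overlap, higher in homozygous heads (11.4% of all genes). Averaged over both stages 0 of 9 were called (2.96% of all genes), with 1 at an unadjusted p under 0.05 (16.9% of all genes). DESeq2 and limma-voom called 0 of 9 in these 3 comparisons as well. The median difference of the 9 was −0.10 for E9.0 and 0.02 for E9.5, beside −0.004 and −0.003 for all genes. Crest markers moved with genotype, summing to 355 to 367 CPM in heterozygous and 298 to 327 CPM in homozygous E9.0 libraries, with 1 of 9 called lower. At E9.5 they summed to 234 to 255 and 222 to 245 CPM, with 5 of 9 called lower, and 3 of 10 markers of facial mesenchyme were called lower (308 to 477 and 282 to 366 CPM). At this stage endothelial markers summed to 168 to 236 CPM in heterozygous and 303 to 334 CPM in homozygous libraries, with 7 of 8 called higher. Their part in the values of the members was not tested.

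**Figure D3:**
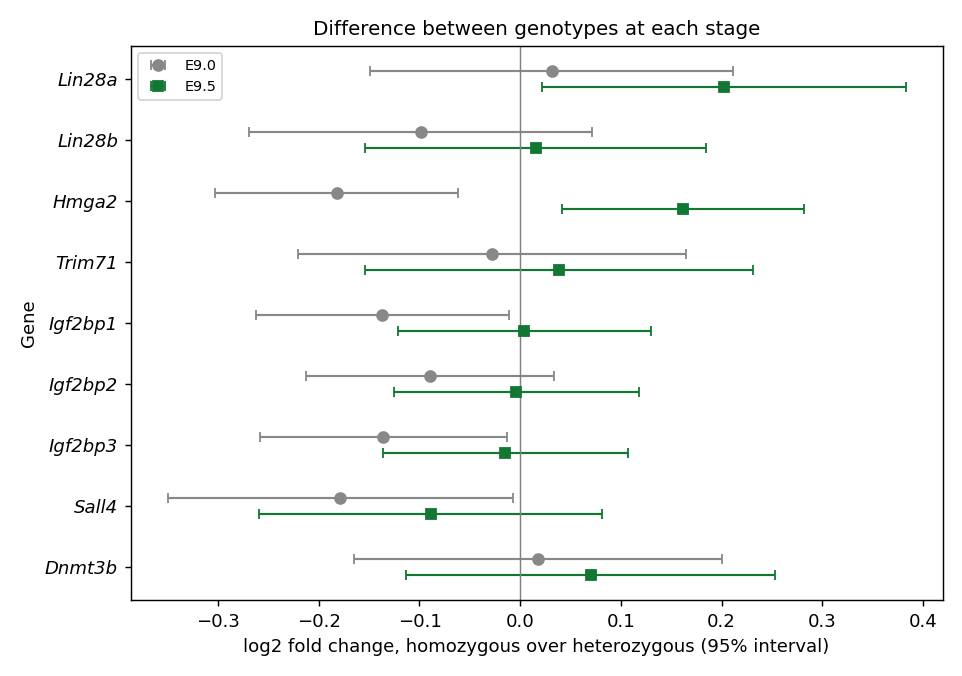
Log2 difference of homozygous over heterozygous heads (x axis, bars are 95% intervals, unadjusted) at E9.0 (grey circles) and E9.5 (green squares), 3 libraries per group. The E9.0 intervals of Hmga2, Igf2bp1, Igf2bp3 and Sall4 lie left of 0, the E9.5 intervals of Lin28a and Hmga2 lie right of it, and the values span −0.18 to 0.20.

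The difference between the 2 stage changes was tested directly, as the interaction of genotype and stage. It was called for 0 of 9 members and for 0.0675% of all genes by edgeR, with 1 member, Hmga2, at an unadjusted p under 0.05 (8.6% of all genes). All 9 estimates were positive, from 0.05 for Dnmt3b to 0.34 for Hmga2, with a median of 0.11 beside 0.01 for all genes, so that each homozygous stage change lay above the heterozygous one. For 7 members this was a smaller fall, Igf2bp3 stood at 0.02 in homozygous heads, and Hmga2 at 0.15. For Lin28b, Igf2bp1, Igf2bp2 and Sall4, homozygous heads started lower at E9.0 (−0.10, −0.14, −0.09 and −0.18). Their E9.5 differences were 0.02, 0.004, −0.004 and −0.09. For Lin28a, Trim71 and Dnmt3b the differences were 0.03, −0.03 and 0.02 at E9.0 and 0.20, 0.04 and 0.07 at E9.5. All these genotype differences missed the threshold. The 9 interaction estimates come from the same libraries, so their shared sign is not 9 separate results. Scaled by total counts only, the sign turned for 8 of 9, all but Hmga2 (0.14), with Lin28a at −0.03 and Dnmt3b at −0.17. That scaling moved the median of all genes in this test too, from 0.01 to −0.19. The interaction of Lin28a was 0.17 ± 0.12 (edgeR adjusted p 0.729), that of Lin28b 0.11 (0.822) and that of Trim71 0.07 (0.924). For Hmga2 it was 0.34 ± 0.08 (edgeR adjusted p 0.18, unadjusted 0.000556), and DESeq2 gave an adjusted p of 0.00933. DESeq2 called 76 genes in this test where edgeR called 10.

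Because these genes fall with stage, the level in homozygous heads can be set beside the heterozygous course to ask how far along it they lie. A position was computed per gene on the log2 CPM scale, with 0 at the heterozygous E9.0 mean and 1 at the heterozygous E9.5 mean, for the 8 genes called in heterozygous heads. At E9.5 the homozygous mean was at 0.863 ± 0.115 for Lin28a, 0.965 ± 0.159 for Lin28b, 0.968 ± 0.182 for Trim71 and 0.934 ± 0.0845 for Dnmt3b (SD over 3 libraries). Igf2bp1 was at 0.991 ± 0.206, Igf2bp2 at 1.01 ± 0.102 and Sall4 at 1.11 ± 0.0871. These 7 genes thus lay close to the end of the heterozygous course, and 5 of them were within 1 SD of 1. Homozygous E9.5 replicate 3 stood apart from the other 2 libraries: it lay at 0.993 for Lin28a and at 1.03 to 1.22 for the other 6 genes, while replicates 1 and 2 lay below 1 for all of them but Sall4. Without it the median over the 8 genes was 0.87. Lin28a lay further back than 1 SD and Sall4 further ahead, and Hmga2, at 0.19 ± 0.342, stood away from both. Hmga2 had a short course to begin with, so its position is imprecise.

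At E9.0 the homozygous heads were near the start for Lin28a (−0.02 ± 0.0502), Trim71 (0.02 ± 0.0681) and Dnmt3b (−0.02 ± 0.126). The means were 0.222 ± 0.132 for Sall4, 0.233 ± 0.358 for Lin28b and 0.284 ± 0.13 for Igf2bp2, where the libraries overlapped those of heterozygous E9.0 heads. For Igf2bp1 the mean was 0.324 ± 0.0718, without overlap. Hmga2 was at 0.91 ± 0.0876, near the heterozygous E9.5 level. The median over the 8 genes was 0.228 for E9.0 libraries and 0.967 for E9.5 libraries. The E9.0 median moved to 0.116 when heterozygous E9.0 replicate 1 was left out, and to −0.258 with scaling by total counts only. All positions share the heterozygous libraries and are a description with no test.

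**Figure D4:**
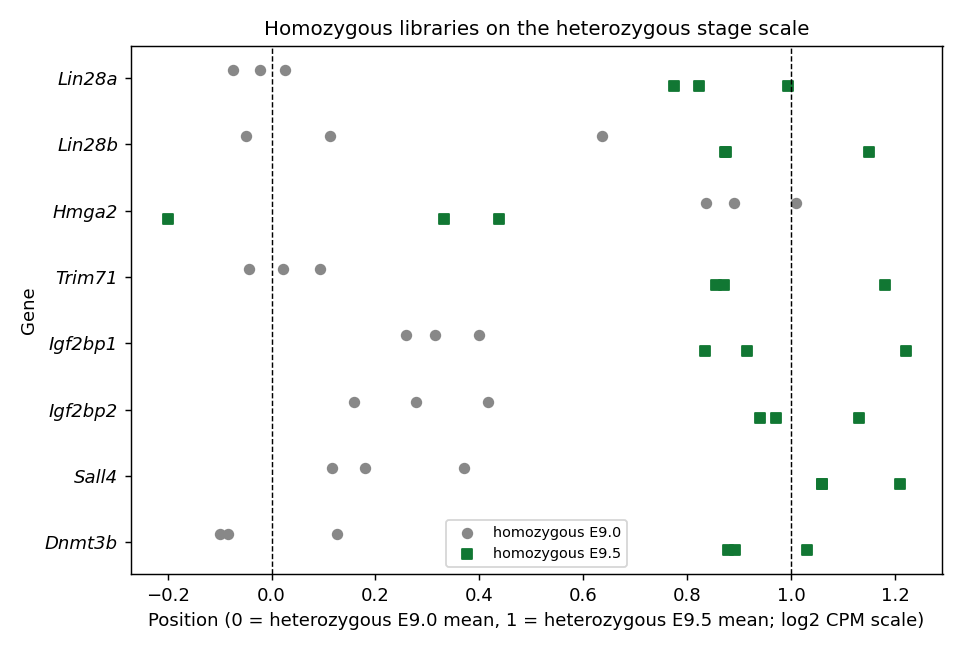
Position of each homozygous library (points) on the heterozygous course from E9.0 (0, dashed line) to E9.5 (1, dashed line), on the log2 CPM scale, for the 8 genes that passed the stage threshold in heterozygous heads. Points of equal value hide each other, as for Lin28b and Sall4 at E9.5. All genes but Hmga2 place the E9.5 libraries (green squares) from 0.775 to 1.22.

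How large a shortfall at E9.5 the data allow in whole heads can be read from the intervals of the genotype difference. The upper 95% bound came to 26.3% of the heterozygous fall for Lin28a, 22.1% for Trim71, 24.3% for Dnmt3b and 10.3% for Sall4. For the genes with smaller falls it came to 30.9% for Igf2bp1, 38.1% for Igf2bp2 and 43.5% for Lin28b, and for Hmga2 to 141%. In 7 of the 8 genes, a homozygous level still at the heterozygous E9.0 value would thus lie outside the interval. A lag of a small part of the heterozygous fall would lie inside that interval. This count rests on TMM scaling. With total counts only, the heterozygous change was −0.07 for Lin28b, −0.05 for Igf2bp1 and 0.07 for Igf2bp2, so the bounds of these genes depend on the scaling. The bounds are for single genes, share the heterozygous E9.5 libraries with the fall they are divided by, and take that fall as known without error. They come from the edgeR fit of all 12 libraries only. The libraries held markers of many cell types, while Eftud2 was altered in neural crest cells. The bounds are thus for the mixture and set no limit on a shortfall in crest cells alone. Over 24 alternatives the E9.5 difference was 0.14 to 0.29 for Lin28a and −0.02 to 0.14 for Trim71. For Dnmt3b it was 0.04 to 0.12 and for Sall4 −0.13 to −0.04, so the bounds would move as well. A difference in stage among the embryos of a group cannot be told apart from a genotype effect here, since somite numbers per library are not given.

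Compared per kilobase of annotated exon, Lin28a was the most abundant of the 9 in heterozygous E9.0 heads, at 244 ± 20.8 CPM per kb (SD, n = 3), followed by Igf2bp1 at 131 ± 5.49. Hmga2 was at 55.9 ± 1.74, Trim71 at 45.3 ± 4.13, Igf2bp3 at 42.9 ± 1.85, Igf2bp2 at 35.7 ± 2.69, Lin28b at 34.7 ± 3.78, Sall4 at 31.2 ± 3.78 and Dnmt3b at 28.8 ± 3.75 CPM per kb. Neighbours from Trim71 to Igf2bp3 and from Igf2bp2 down to Dnmt3b differed by no more than their spread. In heterozygous E9.5 heads Igf2bp1, at 97.7 ± 5.26 CPM per kb, stood above Lin28a, at 89.1 ± 7.18. In homozygous E9.5 heads Lin28a was at 102 ± 11.6 and Igf2bp1 at 98.0 ± 5.79 CPM per kb, a difference within their spread. Divided by the longest transcript instead, Igf2bp3 (80.5 CPM per kb), Lin28b (58.1) and Igf2bp2 (53.4) moved ahead of Trim71 (45.3) in heterozygous E9.0 heads, while Lin28a (278) and Igf2bp1 (151) kept the lead.

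Outside the 9 members, the genes of 14801 whose log2 CPM followed Lin28a most closely over the 12 libraries were Eif3a (a translation initiation factor subunit, r = 0.993), Prtg (protogenin, a receptor of the early neural tube and mesoderm, r = 0.991) and Fzd7 (a Wnt receptor, r = 0.990). For Lin28b they were Lpar4 (a lysophosphatidic acid receptor, r = 0.971), Wdr75 (a ribosome biogenesis factor, r = 0.969) and Papd5 (a poly(A) polymerase, r = 0.969). Among the members, Trim71 had r = 0.992 with Lin28a and Igf2bp1 r = 0.897 with Lin28b. The libraries share the stage difference, which dominates these values. Prtg fell by 1.26 ± 0.11 on the log2 scale in heterozygous and by 1.08 ± 0.11 in homozygous heads, and Fzd7 by 0.92 ± 0.07 and 0.73 ± 0.07.

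Transcripts of the proteins that act with Lin28 or on let-7 moved in both directions. Of 16 genes, 1 rose and 5 fell with stage in heterozygous heads and 3 rose and 7 fell in homozygous heads, with medians of −0.03 and 0.03. Of all tested genes 19.2% rose and 16.0% fell in heterozygous heads and 19.6% and 15.8% in homozygous heads. Drosha, the nuclease that makes the first cut in microRNA precursors, fell by 0.48 ± 0.07 and 0.31 in the 2 genotypes (edgeR adjusted p 8.55e-05 and 0.00282). Hnrnpa1, which binds microRNA precursors, fell by 0.39 ± 0.09 and 0.37. Scaled by total counts only, the heterozygous calls of Drosha (−0.09, edgeR adjusted p 0.564) and Hnrnpa1 (−0.02, edgeR adjusted p 0.902) were lost. Ago4, an Argonaute present at only 1.03 to 1.77 CPM at E9.0, rose by 1.06 ± 0.20 and 0.81. Dis3l2, the nuclease that destroys uridylated pre-let-7, had stage values of 0.15 and 0.03 and passed no test. Of the 2 uridylyl transferases that work with Lin28, Tut4 (listed as Zcchc11) rose in homozygous heads by 0.21 (edgeR adjusted p 0.023) and stood at 0.07 in heterozygous heads, and Tut7 (listed as Zcchc6) passed no test. No gene of the list was called between genotypes at either stage (0.587% of all genes at E9.0 and 1.89% at E9.5). Averaged over both stages, where 2.96% of all genes were called, Ago1 alone of this list was called. It was lower by 0.20 ± 0.05 in homozygous heads (log2 −0.20, edgeR adjusted p 0.0403), a call kept in 2 of 12 fits with 1 library left out.

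Of 26 further let-7 targets, 2 rose and 12 fell with stage in heterozygous heads and 5 rose and 10 fell in homozygous heads, with medians of −0.09 and −0.02. Among all tested genes, 19.2% were called higher and 16.0% lower in heterozygous heads, and 19.6% and 15.8% in homozygous heads. Nr6a1, an orphan nuclear receptor of the early embryo also known as Gcnf, fell the most of the 26. It was at 374, 349 and 373 CPM in heterozygous and 333, 353 and 328 CPM in homozygous E9.0 libraries. By E9.5 it stood at 100.2, 149 and 96.7 CPM in heterozygous and at 144, 142 and 106 CPM in homozygous libraries. All E9.5 libraries were far below E9.0 and the genotypes overlapped. The log2 change was −1.66 ± 0.16 in heterozygous and −1.37 ± 0.16 in homozygous heads (edgeR adjusted p 1.98e-05 and 7.19e-05). Arid3b, a DNA-binding protein, fell by 0.75 ± 0.10 and 0.61 ± 0.10. Tgfbr1, a TGF-beta receptor, rose by 0.29 ± 0.10 and 0.30, and E2f6, a repressor of the E2F family, by 0.17 ± 0.05 and 0.19; these 2 heterozygous calls held in 3 and 2 of 6 fits with 1 library left out. None of the 26 was called between genotypes at either stage (0.587% of all genes at E9.0 and 1.89% at E9.5). Averaged over both, 1 was called higher and 1 lower (2.96% of all genes in either direction). Cdc34, a ubiquitin-conjugating enzyme, was higher by 0.19 ± 0.05 (edgeR adjusted p 0.0453). Pbx3, a homeodomain cofactor, was lower at −0.20 ± 0.05 (edgeR adjusted p 0.0245). The 2 calls were kept in 3 and 6 of 12 such fits.

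The other Sall genes fell with Sall4. Sall1 changed by −1.12 ± 0.11 in heterozygous and −0.92 ± 0.11 in homozygous heads, Sall3 by −1.11 ± 0.13 and −0.85 ± 0.13, and Sall2 by −0.55 ± 0.08 and −0.56 ± 0.08, so that 3 of 3 were called lower in each genotype (16.0% and 15.8% of all genes) and 0 of 3 between genotypes at E9.0 or E9.5 (0.587% and 1.89%). Dnmt3b and its relative Dnmt3a moved in opposite directions. Dnmt3a, the methyltransferase that takes over in later tissues, rose by 0.30 ± 0.07 in heterozygous and 0.56 in homozygous heads (edgeR adjusted p 0.00271 and 1.33e-05). Among the 7 genes of DNA methylation and its removal listed beside Dnmt3b, 6 were tested, 2 rose and 3 fell in heterozygous heads and 2 rose and 1 fell in homozygous heads, beside 35.2% and 35.4% of all genes called in either direction. Tet1 and Tet3, oxygenases of methylated cytosine, fell in heterozygous heads by 0.48 ± 0.09 and 0.35 ± 0.07, which moved to −0.10 and 0.02 when scaled by total counts only, with both calls lost, and stood at −0.22 and −0.18 in homozygous heads (edgeR adjusted p 0.076 and 0.05). Tet2 rose by 0.41 ± 0.13 and 0.59, the heterozygous call holding in 3 of 6 fits with 1 library left out.

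Pluripotency genes were low at these stages. Of 16 listed, 7 had enough counts to test. Among these, 1 rose and 2 fell in heterozygous and 2 rose and 3 fell in homozygous heads, beside 35.2% and 35.4% of all genes called in either direction. Between genotypes 0 of 7 were called at E9.0, at E9.5 or averaged over stages (0.587%, 1.89% and 2.96% of all genes). Homozygous heads were higher for 6 of 7 at E9.0 (median 0.35), 5 at E9.5 (0.20) and 6 in the average (0.41), all at low levels. Pou5f1 (Oct4) was at 0.21 to 2.03 CPM in the 6 E9.0 libraries and at 0 to 0.03 CPM, at most 1 count, in the 6 E9.5 libraries. It was called lower in heterozygous and homozygous heads (edgeR adjusted p 0.00193 and 0.000122). Fgf4 changed by −0.89 ± 0.24 and −1.34 (the heterozygous call was lost when scaled by total counts only, at −0.54), from 1.47 to 2.57 CPM at E9.0 to 0.71 to 0.998 CPM at E9.5. Tfcp2l1 rose by 0.58 ± 0.18 and 0.69, at 1.39 to 3.34 CPM throughout, the heterozygous call holding in 3 of 6 fits with 1 library left out.

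A list of genes of later neural development and hosts of let-7 was read beside the members. Of 12 listed, 11 were tested, and 7 were called higher in heterozygous and 8 in homozygous heads (19.2% and 19.6% of all tested genes), with none called lower and medians of 0.89 and 0.71. Mir99ahg, the host transcript of let-7c and miR-125b, was at 0.73, 0.91 and 0.30 CPM in heterozygous and 0.83, 0.46 and 0.27 CPM in homozygous E9.0 libraries. The E9.5 levels were 4.18, 3.52 and 4.44 CPM in heterozygous and 2.19, 3.07 and 2.89 CPM in homozygous libraries. It rose in both genotypes, and at E9.5 every homozygous library lay below every heterozygous one. The log2 rise was 2.69 ± 0.31 and 2.41 ± 0.35 (edgeR adjusted p 8.36e-06 and 6.79e-05), and the E9.5 genotype difference of −0.57 ± 0.23 missed the threshold (edgeR adjusted p 0.291). Fabp7, a fatty acid binding protein of maturing neural progenitors, was at 22.1, 27.1 and 22.8 CPM in heterozygous and at 15.5, 14.8 and 16.8 CPM in homozygous E9.5 libraries, up from 3.38 to 5.47 CPM at E9.0. The groups at E9.5 did not overlap, and the difference was −0.61 ± 0.13 (edgeR adjusted p 0.0194, kept in 2 of 6 fits with 1 library left out). It was the only one of the 11 tested genes called at E9.5 (1.89% of all genes). None of them was called at E9.0 (0.587% of all genes) or in the average over stages (2.96%). The interaction of Fabp7 with stage was not called (−0.47 ± 0.22, edgeR adjusted p 0.58). Summed markers of neural progenitors, a list that holds Fabp7 too, lay at 747 to 944 CPM in heterozygous and 784 to 870 CPM in homozygous E9.5 libraries, and those of neurons and ganglia at 228 to 265 and 196 to 210 CPM. Their part in the Fabp7 difference was not tested.

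In the growth factor axis named for the Igf2bp proteins, 2 of 6 genes were called between genotypes in the average over both stages, H19 and Igfbp5 (2.96% of all genes). At the single stages Igfbp5 was called at E9.5 (1 of 6, 1.89% of all genes) and none at E9.0 (0.587%), with H19 at an edgeR adjusted p of 0.126 at E9.0 and 0.0614 at E9.5. Of its 6 genes, 3 rose with stage in heterozygous and 5 in homozygous heads (19.2% and 19.6% of all genes), and none fell. Igf2r, the receptor that clears Igf2, rose by 0.72 ± 0.09 and 0.84, and Igfbp2, which binds the factor outside the cell, by 0.52 ± 0.10 and 0.33. H19, the imprinted RNA next to Igf2, was at 1763, 1611 and 1588 CPM in heterozygous and 2024, 2110 and 2141 CPM in homozygous E9.0 libraries. Its E9.5 levels were 2217, 1599 and 2104 CPM against 2474, 2474 and 2648 CPM. Homozygous libraries were higher without overlap at both stages. Averaged over stages the difference was 0.35 ± 0.06 (edgeR adjusted p 0.00782), kept in all 23 alternatives, the 12 fits with 1 library left out included. Igfbp5, another Igf-binding protein, was at 540, 473 and 497 CPM in heterozygous and at 613, 752 and 713 CPM in homozygous E9.5 libraries, without overlap. The E9.5 difference was 0.46 ± 0.09 (edgeR adjusted p 0.0153, kept in 3 of 6 fits with 1 library left out) and the average over stages 0.29 ± 0.06 (edgeR adjusted p 0.0211, kept in 7 of 12). Igf2 itself was higher at E9.5 by 0.44 ± 0.11, which missed the threshold (edgeR adjusted p 0.0721). Summed endothelial markers lay at 308 to 315 CPM in homozygous and 259 to 277 CPM in heterozygous E9.0 libraries with 0 of 8 called, beside the E9.5 values above. Surface ectoderm markers summed to 470 to 500.1 against 373 to 442 CPM at E9.0 with 0 of 8 called, and to 404 to 506 against 345 to 398 CPM at E9.5 with 1 of 8 called higher. Their part in the values of this axis was not tested.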

How the data were processed

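Per the submitters' processing notes, cutadapt, STAR, featureCounts and MultiQC were used with mouse build mm10 (versions, annotation and strand setting are not given in the sources used here). The authors deposited raw counts, whole numbers per gene symbol that are not normalized. From these, edgeR 4.0.16 in R 4.3.3 gave TMM-scaled CPM and robust quasi-likelihood tests of 14810 genes (filterByExpr) in 1 model of 4 group means over 12 libraries, with Benjamini-Hochberg adjustment over all of them, a threshold of 0.05 and two-sided tests. The 9611 genes left out held at most 0.0778% of a library. Alternatives were other scalings, DESeq2 1.42.0, limma 3.58.1 (voom), other filters and dispersions, the replicate block and each library left out. Lengths, positions and 3′ UTRs came from GENCODE M21. Rn45s stayed in the table, with and without tested. Nothing says that libraries came from separate embryos, so p-values measure the spread between libraries, and no 2 libraries of a group agreed within sampling noise. On simulated data for the E9.5 genotype comparison (14583 genes), 70 of 100 changes of 0.5 and 96 of 100 of 1 (log2) were recovered, with 12 false calls. Only well-counted genes were changed, and the groups otherwise shared 1 mean per gene, without a stage effect. Smaller changes were not simulated, so the recovery does not cover the members' E9.5 differences of −0.09 to 0.20.

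The members and lists were chosen with earlier results of these data known. Named were all 9 members; per list, members called between genotypes plus the 2 largest called rises and falls with stage in heterozygous heads; the 3 genes closest to Lin28a and to Lin28b; and Eftud2. Sall2, Dis3l2, Tut4, Tut7 and Igf2 were named outside this rule, after their values were seen. Tut4, Tut7 and Mir100hg were read under older symbols, and Mirlet7bhg was not matched.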

Additional observations from a re-analysis of the deposited data

Results flagged for a closer look

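Hmga2 was marked because its genotype difference had opposite directions at the 2 stages. Every homozygous library lay below every heterozygous one at E9.0 and above every one at E9.5. The test of this difference, the interaction of genotype and stage, gave 0.344 on the log2 scale (SE 0.08), which missed the threshold in edgeR (adjusted p 0.18) and passed it in DESeq2 (adjusted p 0.00933), in 1 of 23 alternatives. Over those 23 the value ranged from 0.14, with total counts as the only scaling, to 0.39, and the adjusted p from 0.00933 to 0.825. Without homozygous E9.5 replicate 3 it was 0.31 (edgeR adjusted p 0.447). The cause was not tested.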

How the results depend on the processing

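Of 1278 values of the members under an alternative, 1201 kept their direction and their side of the threshold. Another 61 were values that passed no threshold and changed sign, 22 of them with total counts as the only scaling. With total counts as the only scaling, which put the median of all genes at 0.19 at E9.0 between genotypes, 0.38 with stage in heterozygous and 0.18 in homozygous heads and −0.19 for the interaction, the heterozygous stage change turned to 0.18 for Hmga2, 0.0742 for Igf2bp2 and 0.0229 for Tet3. Under it 4 members were called with stage in each genotype, 123 genes between genotypes at E9.5 and 3326 with stage in homozygous heads, and the median position at E9.0 was −0.258. The share of higher calls also moved, to 75 of 78 at E9.0 (64 of 87 with TMM), 58 of 123 at E9.5 (176 of 280), 6729 of 6984 with stage in heterozygous (2840 of 5216) and 2897 of 3326 in homozygous heads (2896 of 5238). An alternative added after seeing the data, total counts without Rn45s, put the first 3 medians at 0.02, 0.11 and 0.08. DESeq2 called 216 genes at E9.0, 448 at E9.5 and 76 for the interaction, 1 of them a member. Limma-voom called 51 at E9.0 and 5 for the interaction.

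With each library left out in turn, 38 to 109 genes were called at E9.0 (38 without homozygous E9.0 replicate 3, 39 without heterozygous E9.0 replicate 2), 133 to 301 at E9.5 (133, 136 and 168 without homozygous E9.5 replicates 2, 3 and 1, and 151 leaving out heterozygous E9.5 replicate 2), 4088 to 5444 with stage in heterozygous and 4060 to 5549 in homozygous heads, 1 to 16 for the interaction (16 without heterozygous E9.5 replicate 2, 1 with homozygous E9.5 replicate 3 left out, and 2 to 6 without heterozygous E9.0 replicate 1 or 2, heterozygous E9.5 replicate 1, homozygous E9.0 replicate 3 or homozygous E9.5 replicate 1 or 2) and 246 to 411 for the average of both stages (249 without heterozygous E9.0 replicate 2, 285 without homozygous E9.0 replicate 3, 246 with homozygous E9.5 replicate 2 left out). Members called ranged from 0 to 0 between genotypes and for the interaction, and were 7 to 8 with stage in either genotype. The median position ranged from 0.116 to 0.268 at E9.0 and from 0.87 to 1.01 at E9.5. With the replicate number as a block, 69 genes were called at E9.0, 248 at E9.5, 5019 and 5012 with stage, 9 for the interaction and 383 for the average, and 8 and 7 members with stage, so it changed no member's call. Libraries with the same number did not deviate together (correlations −0.167 to 0.109), and the numbers are taken as names only.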

Other observations

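In homozygous E9.5 heads, replicate 3 was the lowest of 3 for 8 of the 9 members and the highest for Hmga2. In heterozygous E9.5 heads, replicate 2 was the highest for 6 members. The 12 rows of let-7 hairpins held 0 to 19 counts per library, at most 71 in sum, and 3 of them were tested. These libraries do not measure mature microRNAs, so the other side of the Lin28 and let-7 pair was not analysed here.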
